A study of Arabidopsis thaliana with 6 samples.

Results

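The 10 genes described here are regulators of phloem specification, taken by their locus identifiers from the 33341 genes of the count files: CLE25, CLE45, BAM3, OPS, BRX, CVP2, SMXL3, SMXL4, SMXL5 and APL. They were read in nuclear RNA of 2 domains of the Arabidopsis thaliana flower at stage 5. The 3 AP3 libraries (X13, X16 and X74) came from plants with pAP3:NTF, and the 3 AG libraries (X14, X71 and X26) from plants of the same kind but with NTF driven by the second intron of AG with a minimal 35S promoter. All plants were Ler, carried the mutations ap1-1 and cal-1 and the transgene pAP1::AP1-GR, and were treated daily with 2 µM dexamethasone (DEX), which lets AP1-GR enter the nucleus so that many flowers start to develop together. NTF puts GFP on the nuclear envelope, and nuclei with GFP and a DAPI peak were sorted. A domain is therefore all cells in which the construct was active, pooled over many inflorescences, and not 1 tissue. The labels do not say that libraries came from separate cultures of plants, so p-values measure the spread between these samples.

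Phloem carries sugars through files of sieve elements, each supported by companion cells. In the root, where most of these regulators were studied, DOF transcription factors and SMXL proteins start the lineage, OPS and BRX act at opposite ends of the developing sieve element, and CLE peptides perceived by BAM3 hold sieve element formation back. APL, a MYB coiled-coil transcription factor, is needed for phloem identity and sieve element differentiation. AP3 marks the cells that form petals and stamens, and AG marks those that form stamens and carpels at the centre of the flower.

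The 250 bases upstream of 4 members are printed from the RefSeq TAIR10.1 genome, which is of the Columbia accession and not Ler: those of APL, SMXL4 and BAM3, which were lower in AP3 nuclei, and of BRX, the only member whose AP3 libraries were all above its AG libraries. Capitals mark AAAG on either strand (CTTT where it is on the other strand), the core that DOF factors recognise.
APL, chr1:29879280-29879529, minus strand: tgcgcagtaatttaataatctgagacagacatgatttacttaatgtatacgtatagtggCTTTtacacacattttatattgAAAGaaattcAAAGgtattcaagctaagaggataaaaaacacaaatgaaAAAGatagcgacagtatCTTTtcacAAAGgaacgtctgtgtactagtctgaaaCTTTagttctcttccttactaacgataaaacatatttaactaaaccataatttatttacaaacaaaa
SMXL4, chr4:14636102-14636351, minus strand: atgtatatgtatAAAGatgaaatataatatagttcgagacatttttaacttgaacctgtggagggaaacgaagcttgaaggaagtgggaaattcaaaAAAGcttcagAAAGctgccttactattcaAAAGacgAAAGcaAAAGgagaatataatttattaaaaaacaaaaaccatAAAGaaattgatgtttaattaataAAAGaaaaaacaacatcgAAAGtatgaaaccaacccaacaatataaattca
BAM3, chr4:10949323-10949572, plus strand: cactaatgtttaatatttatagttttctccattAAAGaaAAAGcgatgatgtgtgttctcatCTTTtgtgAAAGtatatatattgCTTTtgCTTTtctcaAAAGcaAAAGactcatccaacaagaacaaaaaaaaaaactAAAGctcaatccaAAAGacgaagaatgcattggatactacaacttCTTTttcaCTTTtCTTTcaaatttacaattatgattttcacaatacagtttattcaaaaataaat
BRX, chr1:11445240-11445489, plus strand: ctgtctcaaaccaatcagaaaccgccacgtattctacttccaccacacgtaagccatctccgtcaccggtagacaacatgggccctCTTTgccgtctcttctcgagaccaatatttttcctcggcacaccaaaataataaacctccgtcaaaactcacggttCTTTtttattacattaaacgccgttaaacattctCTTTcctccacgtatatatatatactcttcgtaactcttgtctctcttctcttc
AAAG was found 13 times upstream of BAM3, 9 times upstream of SMXL4 and SMXL5, 7 times upstream of APL, SMXL3, CLE25 and CLE45, 5 times upstream of OPS and 3 times upstream of BRX and CVP2. The core is short and 98% of 27443 protein-coding genes had it in the same window, with a median of 4 matches and a 5th to 95th percentile of 1 to 8. Of the 10 members, 8 had more matches than that median and 3 had more than the 95th percentile. Other motifs searched on both strands were the P1BS element GNATATNC, the TGTCGG form of the auxin response element, the G-box CACGTG and the CArG box. They are in 5.46%, 4.16%, 6.49% and 2.52% of these windows, and none was in the window of any member. Other forms of the auxin response element were not searched.

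The libraries held between 28808948 and 42089156 counts over genes, and replicates of 1 domain differed by more than counting error. X74 and X71 had a read on 26717 and 26489 genes, against 22923 to 23439 in the other libraries. Counts were scaled to library size by TMM and are given as CPM, and each gene was tested with edgeR's quasi-likelihood test, Benjamini-Hochberg adjustment over 20013 genes and an adjusted p threshold of 0.05. The log2 fold change is AP3 over AG, so that a negative value means lower in AP3 nuclei. As a check of the labels, the AP3 transcript had 126, 207 and 239 CPM in the AP3 libraries and 58.1, 41.4 and 12.2 CPM in the AG libraries. The AG transcript went against the labels, with 41.5, 75.4 and 94.3 CPM in AP3 nuclei and 38.4, 41.2 and 14.2 CPM in AG nuclei. Its log2 fold change of 1.17 (standard error 0.41) did not pass in edgeR (adjusted p = 0.141) and passed in DESeq2 (adjusted p = 0.0289). "AP3" and "AG" below are therefore the labels of the libraries.

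Of the 10 members, 5 were lower in AP3 nuclei (APL, SMXL4, SMXL3, BAM3 and CLE25) and none was higher in the test with edgeR. Another 4 (SMXL5, CVP2, OPS and BRX) did not pass, and CLE45 had no count in any library. Over all genes, 7.76% were called, 6.4% lower and 1.36% higher in AP3 nuclei. The 9 members that passed the read filter had a median log2 fold change of -0.99, against 0.03 for all genes tested. In 7 of them every AP3 library was below every AG library, which 15% of all genes showed, and in 1 every AP3 library was above, which 10.9% of all genes showed. At an unadjusted p under 0.05 in edgeR, 7 members were lower and 1, BRX, was higher, where 13.2% of all genes were lower and 6.46% higher. DESeq2 at an adjusted p under 0.05 gave the same 2 counts, where 9.23% of all genes were lower and 2.94% higher. In sorted bulk nuclei, fewer cells of a type and less RNA per cell cannot be told apart.

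**Figure D1:**
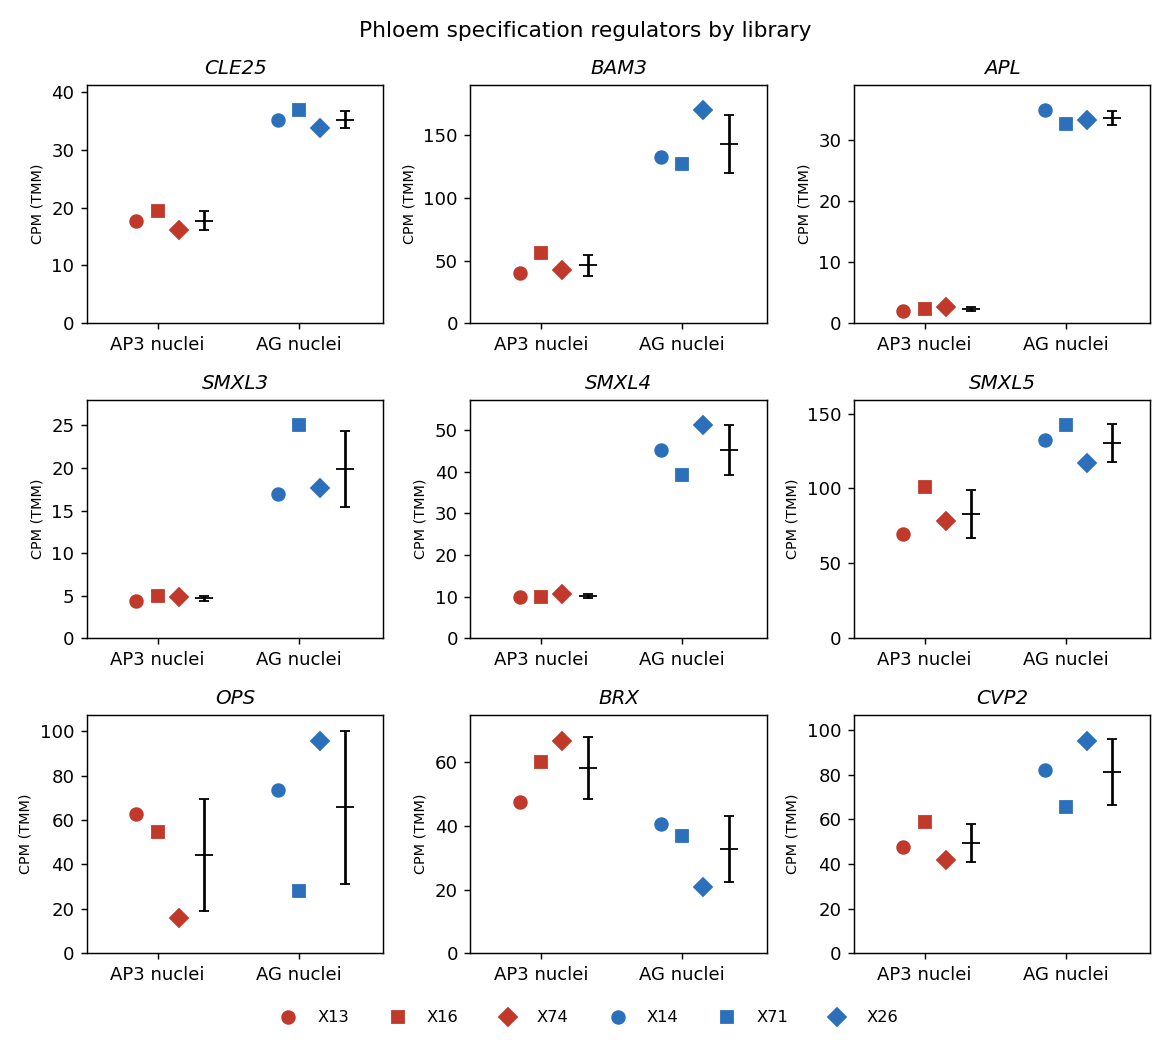
TMM-scaled CPM (vertical axis, linear, starting at 0) of the 9 members with counts, 1 panel per gene, in 3 AP3 libraries (red, left) and 3 AG libraries (blue, right); black bars are the mean and SD. APL lay between 1.98 and 2.67 CPM in AP3 nuclei and between 32.6 and 34.9 CPM in AG nuclei, while the groups overlapped for OPS.

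APL showed the largest difference of the members. The gene (AT1G79430, chromosome 1 from 29877228 to 29879279, minus strand, TAIR10) had 72, 70 and 100 counts in X13, X16 and X74, against 947, 1100 and 1063 counts in X14, X71 and X26. These were 1.98, 2.3 and 2.67 CPM in AP3 nuclei, against 34.9, 32.6 and 33.4 CPM in AG nuclei. The AP3 libraries were all low, the AG libraries lay close together, and nothing overlapped. On the log2 scale it changed by -3.86 (adjusted p = 0.000105 from edgeR, standard error 0.21), a 14.5-fold difference and the 174th lowest value of the 20013 genes. Leaving out each library in turn moved it only between -3.98 and -3.74.

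SMXL3, SMXL4 and SMXL5 encode related nuclear proteins that act redundantly in phloem formation, and unlike other members of their family they are not targets of strigolactone or karrikin signalling. SMXL4 (AT4G29920, chromosome 4) had 9.94, 9.9 and 10.7 CPM in AP3 nuclei, against 45.3, 39.1 and 51.1 CPM in AG nuclei. SMXL3 (AT3G52490, chromosome 3) had 4.36, 4.93 and 4.79 CPM in AP3 nuclei, against 16.9, 25 and 17.7 CPM in AG nuclei. For both genes the AP3 libraries agreed closely with each other and lay far below the AG libraries. SMXL4 had a log2 fold change of -2.15 (standard error 0.18, adjusted p = 0.000392 from edgeR) and SMXL3 one of -2.08 (standard error 0.24, adjusted p = 0.00144 from edgeR).

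SMXL5 (AT5G57130, chromosome 5), the most abundant of the trio, differed less. It had 69.6, 101 and 78.1 CPM in AP3 nuclei, against 132, 142 and 117 CPM in AG nuclei. Every AP3 library was below every AG library, but the highest AP3 library, X16, came close to the lowest AG library, X26. The log2 fold change of -0.66 (standard error 0.19) did not pass in edgeR (adjusted p = 0.0739) and passed in DESeq2 (adjusted p = 0.0211).

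The shares of the trio were compared within each library. Per length of the counted gene, SMXL5 made up 79.4%, 84.3% and 79.9% of the summed SMXL3, SMXL4 and SMXL5 level in X13, X16 and X74, against 62.7%, 63.7% and 57.3% in X14, X71 and X26. SMXL4 made up 14.3%, 10.5% and 13.9% in AP3 nuclei, against 27.2%, 22.2% and 31.7% in AG nuclei. The shares of the domains did not overlap for either gene. The ratio of SMXL4 to SMXL5 counts within a library, which does not depend on library size, differed between AP3 and AG nuclei by -1.47 on the log2 scale, and that of SMXL3 to SMXL5 by -1.39. Each gave p = 0.1 in a 2-sided exact permutation test, the smallest p that 3 against 3 libraries allow, and 0.125 after adjustment over the 5 ratios tested.

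**Figure D2:**
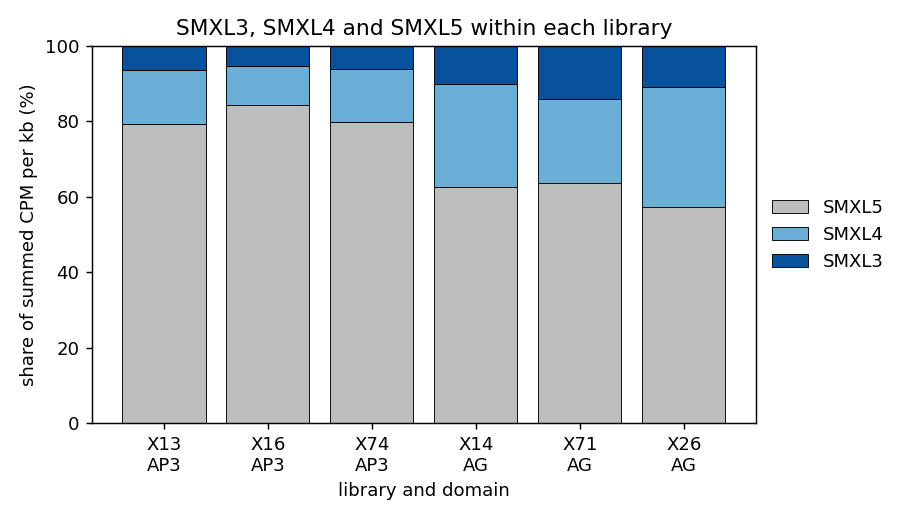
Share (%) of SMXL5 (grey), SMXL4 (light blue) and SMXL3 (dark blue) in their summed CPM per kb, 1 bar per library, AP3 libraries on the left and AG libraries on the right. SMXL5 took 79.4% to 84.3% in AP3 libraries and 57.3% to 63.7% in AG libraries.

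The 5 other SMXL family genes measured, SMAX1, SMXL2, SMXL6, SMXL7 and SMXL8, had a median log2 fold change of -0.54, and 1 of the 5 was called by edgeR. That was SMXL7, a target of strigolactone signalling, with 42.2, 46.2 and 39.3 CPM in AP3 nuclei, against 64, 68.4 and 117 CPM in AG nuclei (log2 fold change -0.96, standard error 0.24, adjusted p = 0.0423 from edgeR). SMXL8 had a log2 fold change of -0.95, and its groups did not overlap. It did not pass in edgeR (adjusted p = 0.0912) and passed in DESeq2 (adjusted p = 0.0258).

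BAM3 is a leucine-rich repeat receptor kinase of developing phloem and the receptor of CLE45 in roots. It (AT4G20270, chromosome 4 from 10949573 to 10953113, plus strand) had 40.4, 56.1 and 42.5 CPM in AP3 nuclei, against 133, 127 and 170 CPM in AG nuclei. Even the highest AP3 library was far below the lowest AG library. The change was -1.63 on the log2 scale (adjusted p = 0.00198 from edgeR, standard error 0.20). Of its close relatives BAM1, BAM2 and CLV1, edgeR called none and DESeq2 called BAM2 higher (log2 fold change 0.57).

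CLE25 encodes a peptide of the same class as CLE45 and is expressed in vascular tissue. The gene (AT3G28455, chromosome 3) had 17.7, 19.4 and 16.1 CPM in AP3 nuclei, against 35.2, 36.8 and 33.7 CPM in AG nuclei. Both groups were tight and did not overlap. The change was -0.99 on the log2 scale (adjusted p = 0.0079 from edgeR, standard error 0.17), and on the 4 libraries of the authors' normalized table (X13, X16, X14 and X26) it was -0.89 and did not pass (adjusted p = 0.0702).

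CLE45 (AT1G69588, chromosome 1) had 0 counts in all 6 libraries, and this says nothing of its expression. Its 884 bases lie wholly inside AT1G69587 (chromosome 1 from 26175566 to 26179389, minus strand), on the opposite strand. The counting took no account of strand and gave no count to a read over more than 1 gene, so a read of CLE45 could not be counted. All 1749 genes that lie inside a gene of the opposite strand, and all 301 inside a gene of the same strand, had no count in any library, against 1543 (6.8%) of 22689 genes that overlap no other. AT1G69587, with 2940 bases outside CLE45, had 415, 288 and 438 counts in AP3 nuclei, against 353, 398 and 239 counts in AG nuclei (log2 fold change 0.01, adjusted p = 0.987 from edgeR). A ratio of CLE45 to BAM3 was therefore not formed.

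CLE26, a related peptide gene that is active on root phloem and is not nested in another gene, was called lower. It had 1, 8 and 8 counts in AP3 nuclei, against 61, 89 and 63 counts in AG nuclei (log2 fold change -3.76, standard error 0.70, adjusted p = 0.013 from edgeR). Its AP3 counts are so few that the size of this change is uncertain. Of 10 receptors and co-receptors of CLE peptides, edgeR called 2 lower and none higher, with a median log2 fold change of -0.21. At an unadjusted p under 0.05 in edgeR 2 were higher, BAM2 and CIK4, and DESeq2 called 1 higher, BAM2 (adjusted p = 0.0441), both named after their values were seen. The 2 lower genes were the co-receptor kinases CIK2, with 33.7, 37.5 and 41.6 CPM in AP3 nuclei against 68.5, 73.9 and 89.4 CPM in AG nuclei (log2 fold change -1.04, adjusted p = 0.00725 from edgeR), and CIK3, with 39.3, 55.9 and 66 CPM in AP3 nuclei against 118, 135 and 126 CPM in AG nuclei (log2 fold change -1.24, adjusted p = 0.00832 from edgeR).

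BRX, a membrane-associated protein that works with the kinase PAX on auxin efflux in the protophloem, was the member with higher values in every AP3 library. The gene (AT1G31880, chromosome 1 from 11445490 to 11450232, plus strand) had 47.7, 60.2 and 66.9 CPM in AP3 nuclei, against 40.6, 36.9 and 20.9 CPM in AG nuclei. The groups did not overlap, although X13 was close to X14, and X26 was well below the other AG libraries. The log2 fold change of 0.83 (standard error 0.26) did not pass in edgeR (adjusted p = 0.0965). It passed in DESeq2 (adjusted p = 0.0302) and in edgeR with no filter on low counts (adjusted p = 0.0343). Introns make up 65.9% of the counted BRX gene, against 0% to 25.5% for the other members. The 4 BRX paralogs measured, BRXL1 to BRXL4, had a median log2 fold change of 0.10 and none was called by edgeR or DESeq2.

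The ratio of BRX to BAM3 counts within a library does not depend on library size, but it joins the changes of both genes. Those were a log2 fold change of 0.83 for BRX, not called by edgeR, and -1.63 for BAM3, called lower. It was 1.18, 1.07 and 1.58 in AP3 nuclei, against 0.307, 0.292 and 0.123 in AG nuclei, in counts not divided by gene length. Per kb of counted gene, BAM3 had a mean of 13.1 CPM and BRX 12.3 CPM in AP3 nuclei, and their libraries overlapped. In AG nuclei the means were 40.4 CPM for BAM3 and 6.92 CPM for BRX. The count ratio differed between AP3 and AG nuclei by 2.50 on the log2 scale (2-sided exact permutation test, p = 0.1, adjusted p = 0.125 over 5 ratios).

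OPS, a polar plasma membrane protein that promotes phloem differentiation and binds the kinase BIN2, was the member with the widest spread. The gene (AT3G09070, chromosome 3, a single exon) had 62.8, 54.8 and 15.7 CPM in AP3 nuclei, against 73.5, 28.1 and 95.8 CPM in AG nuclei. X74 was low among the AP3 libraries and X71 was low among the AG libraries, with log2 CPM differences of -1.90 and -1.58 from the mean of the others of their domain. The groups overlapped, and the log2 fold change of -0.57 had a standard error of 0.53 (adjusted p = 0.653 from edgeR). With the library codes as a block, which sets X74 against X71, it was -0.54 (adjusted p = 0.138 from edgeR). Among libraries of like code, OPS was lower in X74 than in X71, and lower in X13 and X16 than in X14. These groups rest on the codes and not on a stated replicate or batch. Each holds a single AG library and leaves out X26, so the order is a description without a test. The ratio of BRX to OPS overlapped between the domains over all 6 libraries (2-sided exact permutation test, p = 0.3). Among libraries of like code it was 4.27 in X74 against 1.32 in X71, and 0.76 and 1.1 in X13 and X16 against 0.553 in X14.

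CVP2 is a phosphoinositide 5-phosphatase that acts with its paralog CVL1 in vein and protophloem continuity. It (AT1G05470, chromosome 1) had 47.4, 58.8 and 42 CPM in AP3 nuclei, against 82.2, 65.7 and 95.3 CPM in AG nuclei. The groups did not overlap, with X16 the nearest AP3 library to X71. The log2 fold change of -0.71 (standard error 0.20) did not pass in edgeR (adjusted p = 0.0646), and passed in DESeq2 (adjusted p = 0.0195) and with no filter on low counts (adjusted p = 0.0481).

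CVL1 was called lower. It had 29.7, 37.3 and 29.5 CPM in AP3 nuclei, against 61.1, 58.1 and 76.6 CPM in AG nuclei (log2 fold change -1.02, standard error 0.18, adjusted p = 0.0103 from edgeR). The ratio of CVP2 to CVL1 counts was 1.6, 1.58 and 1.42 in AP3 nuclei, against 1.35, 1.13 and 1.24 in AG nuclei. The shift was small, 0.31 on the log2 scale, though the groups did not overlap (2-sided exact permutation test, p = 0.1, adjusted p = 0.125 over 5 ratios).

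**Figure D3:**
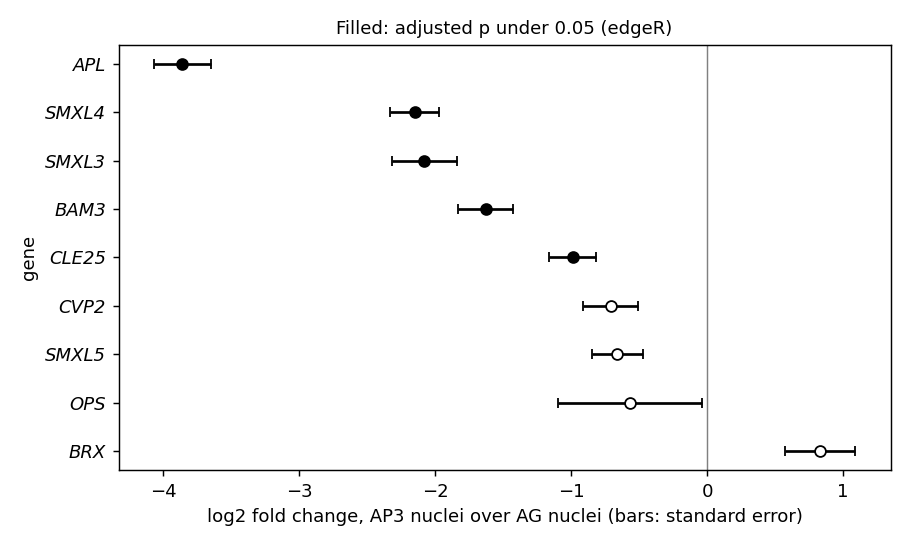
Log2 fold change (AP3 nuclei over AG nuclei, horizontal axis) of the 9 members tested, with the standard error as a bar; filled points had an adjusted p under 0.05 in edgeR. The 5 filled points, APL, SMXL4, SMXL3, BAM3 and CLE25, run from -3.86 to -0.99, and BRX, at 0.83, is the only point above 0.

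Levels were compared between genes as CPM per kb of counted gene length, introns included. In AP3 nuclei the order was SMXL5 (17.7 ± 3.44, mean ± SD, n = 3), OPS (16.2 ± 9.22), BAM3 (13.1 ± 2.41), BRX (12.3 ± 2.05), CVP2 (10.6 ± 1.85), CLE25 (9.24 ± 0.851), SMXL4 (2.76 ± 0.127), SMXL3 (1.27 ± 0.0797) and APL (1.13 ± 0.17). The steps down at CLE25 to SMXL4 and at SMXL4 to SMXL3 were the only ones between neighbours whose 3 libraries did not overlap. In AG nuclei the order was BAM3 (40.4 ± 6.61), SMXL5 (27.9 ± 2.7), OPS (24.1 ± 12.6), CLE25 (18.3 ± 0.816), CVP2 (17.5 ± 3.2), APL (16.4 ± 0.576), SMXL4 (12.2 ± 1.63), BRX (6.92 ± 2.22) and SMXL3 (5.37 ± 1.21). There BAM3 was above SMXL5, APL above SMXL4 and SMXL4 above BRX in every library, and the other neighbours overlapped. By its mean APL came last of the 9 measured members in AP3 nuclei, where it overlapped with SMXL3, and it lay above SMXL4, BRX and SMXL3 in AG nuclei.

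The DOF factors and other partners of the members were also measured. Of 18 partner genes 4 were lower and none was higher in AP3 nuclei (edgeR), with a median log2 fold change of -0.34. Besides CIK2 and CIK3 these were 2 DOF factors. HCA2, which promotes vascular cell formation, had 2.88, 3.19 and 1.5 CPM in AP3 nuclei, against 15.3, 10.8 and 10.9 CPM in AG nuclei (log2 fold change -2.29, standard error 0.36, adjusted p = 0.0057 from edgeR). PEAR2, which promotes cell divisions around the root protophloem, had 2.17, 1.35 and 1.9 CPM in AP3 nuclei, against 7.82, 4.71 and 9.66 CPM in AG nuclei (log2 fold change -2.03, standard error 0.39, adjusted p = 0.014 from edgeR). For both, each AP3 library was below each AG library. Of the 16 paralogs of members, 3 were lower (SMXL7, CVL1 and CLE26) and none was higher, with a median of -0.11. At an unadjusted p under 0.05 in edgeR, 1 partner and 2 paralogs were higher, and with DESeq2 0 partners and 1 paralog.

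Genes of differentiating phloem were also lower in AP3 nuclei. Of 14 such genes 11 passed the read filter, and 10 of the 11 were lower in AP3 nuclei, with a median log2 fold change of -3.16. Without X74 and X71 (the libraries outside the authors' table), 8 of 11 were lower. The 4 companion cell genes were all lower (median -3.63), and SUC2, the sucrose transporter that loads the phloem, had 1.56, 2.1 and 3.45 CPM in AP3 nuclei, against 23.7, 16.4 and 66.4 CPM in AG nuclei (log2 fold change -3.90, standard error 0.56, adjusted p = 0.00391 from edgeR). FTIP1, which helps export the florigen FT, had 1 count in each AP3 library, against 66, 36 and 134 counts in AG nuclei. The companion cell genes NaKR1 (log2 fold change -3.37, adjusted p = 0.000622) and AHA3, a proton pump (log2 fold change -2.37, adjusted p = 0.0217), completed that group, both from edgeR. AHA3 had 19.9, 22.4 and 75.5 CPM in X14, X71 and X26. Over the alternative settings its log2 fold change lay between -2.71 and -1.48, and it did not pass in all of them (largest adjusted p = 0.0863). X26 had the highest summed level of the companion cell genes, 165 CPM, against 56.5 CPM in X14 and 53.4 CPM in X71.

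Of the 7 sieve element genes tested, 6 were lower in AP3 nuclei. The filament protein genes SEOR1 and SEOR2 had log2 fold changes of -2.65 and -3.16, the phloem lectin PP2-A1 had -4.42, ENODL9 had -2.80 and the sieve plate callose synthase CALS7 had -1.41, with adjusted p from edgeR between 0.00102 for SEOR2 and 0.0253 for ENODL9. The exonuclease NEN4, which takes part in the loss of the sieve element nucleus, had 3, 0 and 1 counts in AP3 nuclei, against 18, 14 and 15 counts in AG nuclei (adjusted p = 0.0423). CHER1 was not called (log2 fold change 0.12, adjusted p = 0.861). NAC045 and NAC086, which act downstream of APL in roots, were at or below 14 counts in every library and did not pass the filter. Of the 3738 bases of NAC045, 1096 overlap a gene on the opposite strand, and reads there could not be counted. NAC086 overlaps no other gene. RTM1 had no count, and like CLE45 it lies wholly inside a gene on the opposite strand.

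**Figure D4:**
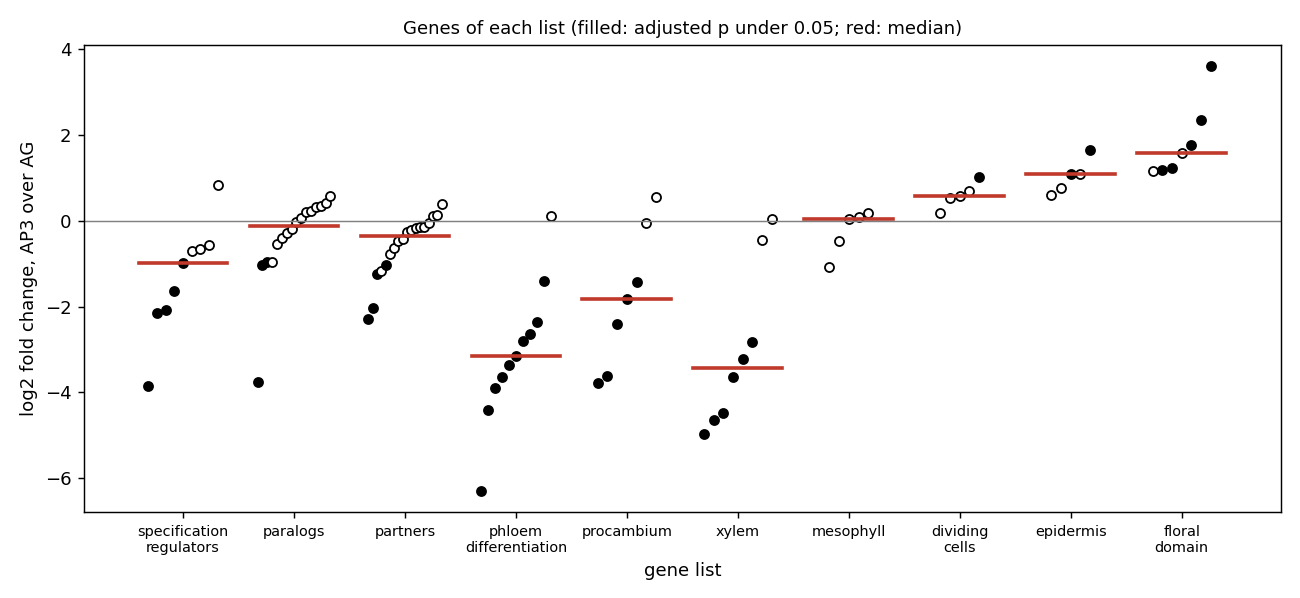
Log2 fold change (AP3 nuclei over AG nuclei, vertical axis) of each gene tested in 10 gene lists; filled points had an adjusted p under 0.05 in edgeR and red lines are medians. The medians were -0.99 for the specification regulators, -3.16 for phloem differentiation, -3.42 for xylem, -1.82 for procambium, 1.09 for epidermis and 1.58 for floral domain genes.

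Of the markers of other cell types, most of xylem and procambium were lower in AP3 nuclei, and some of epidermis, dividing cells and floral domains were higher. Of 8 xylem genes 6 were lower in AP3 nuclei (median log2 fold change -3.42), with a summed level of 29.3 to 35 CPM in AP3 nuclei and 59.2 to 67.2 CPM in AG nuclei. Procambium genes were lower for 5 of 7 (median -1.82), with a sum of 550 to 679 CPM in AP3 nuclei and 792 to 989 CPM in AG nuclei. Epidermis genes were higher for 2 of 5 (median 1.09), with a sum of 3755 to 4853 CPM in AP3 nuclei and 1047 to 2267 CPM in AG nuclei. Genes of dividing cells were higher for 1 of 5 (median 0.57, sum 4747 to 4882 CPM in AP3 nuclei and 2850 to 3662 CPM in AG nuclei), floral domain genes were higher for 5 of 7 (median 1.58) and mesophyll genes were called for 0 of 5 (median 0.04; also 0 of 5 at an unadjusted p under 0.05 and with DESeq2). The floral domain genes were AP3, PI, AG, UFO, SEP3, AP1 and LFY. They include AP3, whose promoter drove the sorting and which served above to check the labels, and AG, which was not called by edgeR. For phloem differentiation the sum was 71.8 to 100 CPM in AP3 nuclei and 148 to 306 CPM in AG nuclei, and for the members themselves 279 to 367 CPM in AP3 nuclei and 533 to 635 CPM in AG nuclei. Such sums weigh abundant genes most, and some of these were not called by edgeR. CHER1 had a mean of 64.3 CPM in AP3 nuclei and 59 CPM in AG nuclei, and CESA4 of xylem 26.2 and 25.6 CPM. Among genes of dividing cells, CDC20.1 had 2482 and 1730 CPM, and CDC20.2 had 2008 and 1354 CPM. The part of these other cell types in the results for the members was not tested.

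The genes whose pattern over the 6 libraries was most like the mean of the 9 members were AT1G80870, AT3G22810, sks17, ROPGEF5 and CHR38. The measure was the root mean square difference of centred log2 CPM, over 14360 other genes whose log2 CPM averaged 3 or more. It was 0.0787 for AT1G80870 and 0.114 for CHR38, the first and last of the 5. Among the members themselves CLE25 (0.184) and BAM3 (0.208) were nearest to that mean, and APL (1.28) and BRX (1.15) were farthest from it, on opposite sides.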

How the data were processed

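RNA of sorted GFP-positive nuclei was converted to cDNA with SMART-Seq v4 and sequenced. The authors trimmed reads (Trimmomatic), mapped them uniquely to TAIR10 with STAR 2.7.0b and deposited unnormalized counts of read pairs per whole gene, introns included and without strand. The file headers name featureCounts 1.6.0, whereas the methods name another version. The headers also give the gene length in bases used here for levels per kb. The authors also deposited variance stabilized values, on a log2-like scale, from DESeq2 1.24.0 for 18761 genes in 4 libraries.

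Here, organelle genes (2.39% to 4.56% of counts) were left out, and a gene was kept if 2 or more libraries held over 10 of its reads, which left 20013 genes to be tested with edgeR 4.0.16 (R 4.3.3; TMM, no block). DESeq2 1.42.0 was an alternative, and the others were size factors, filters, libraries, a block of library codes and leaving out each library. Standard errors were back-calculated from the F statistic. Log2 ratios of members within libraries (pseudocount 0.5) were compared by exact permutation. The script for the gene-wide test was tested on simulated data. All 10 members are named. Of the paralogs, partners and phloem differentiation genes, those called are named, and marker genes only where a statement needs them. The members and lists were chosen with earlier results of these data known. Sequences and motif counts come from RefSeq TAIR10.1, in which all 10 members have the coordinates of the count files. Taken over all genes tested, counting error was small beside the spread of the 3 libraries per domain. Genes with few counts are an exception, and the comparison was not made for single members.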

Additional observations from a re-analysis of the deposited data

How the results depend on the processing

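The sample labels give the libraries no replicate numbers. The names of the deposited counts number only X74, X71 and X26, with the same number for X74 and X71. No fit was therefore paired by replicate. A block of library codes was fitted in its place (X74 with X71, and X13 and X16 with X14, while X26 stands by itself and does not enter the contrast). It left 5 members lower and 0 higher in AP3 nuclei, and 6 of 18 partners lower in place of 4. Over 126 alternative values of the 9 tested members, none reversed, 1 lost its call (CLE25 on the 4 libraries of the authors' table) and 5 gained one (SMXL5, CVP2 and BRX with DESeq2, CVP2 and BRX with no filter). The number of members called lower in AP3 nuclei was 5, between 4 (those 4 libraries) and 7 (DESeq2), and 5 without each library in turn. The number called higher was 0, and 1 with DESeq2 and 1 with no filter beyond 1 read, both times BRX. Differences in the variance stabilized table were smaller for APL (-2.37), SMXL4 (-1.73), SMXL3 (-1.15) and CLE25 (-0.71); the cause was not tested. Leaving out a library moved the uncalled difference of OPS between -0.93 and -0.16.

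Over all genes, 273 were higher and 1281 lower in AP3 nuclei, against 588 and 1847 with DESeq2, 444 and 1513 with no filter, and 75 and 947 on the 4 libraries. Leaving out each library gave 86 to 276 higher and 651 to 1262 lower. Counts for the gene lists under other settings were added after seeing the data. On the 4 libraries, 2 of 16 paralogs, 4 of 18 partners, 5 of 8 xylem and 5 of 7 procambium genes were lower, and 1 of 7 floral domain, 0 of 5 epidermis and 0 of 5 dividing cell genes were higher. With DESeq2, 7 of 7 floral domain, 4 of 5 epidermis and 4 of 5 dividing cell genes were higher. The ratios cannot pass the threshold with 3 against 3 libraries, so their p-values say nothing of stability.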

Other observations

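OPL1, a paralog of OPS that was singled out after its values were seen, was also low in X74 and X71. It had 8.13 CPM in the AP3 library X74 and 8.03 CPM in the AG library X71, and 15.5 CPM or more in each of the other 4 libraries (log2 fold change 0.35, adjusted p = 0.722 from edgeR). The other paralog, OPL2, had 29, 32.1 and 30.8 CPM in AP3 nuclei, against 31.5, 19.3 and 28.7 CPM in AG nuclei, so that it was low in X71 but not in X74.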
